A study of Mus musculus with 24 samples.

Results

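Aminoacyl-tRNA synthetases are the enzymes that join each amino acid to its tRNA. The members described here are the genes whose symbol is an amino acid letter followed by ars, with or without a 1 or 2, together with Farsa, Farsb and Eprs, each read from the array cluster with the highest mean. The rule found 34 of the 22180 genes measured: 18 that serve the cytosol and 16 whose suffix 2 marks the mitochondrial enzyme. Aars has no cluster of its own, since its cluster is shared with Exosc6, and Dars was not analysed here.

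Every cell carries separate sets of synthetases for the cytosol and the mitochondrial matrix, both encoded in the nucleus, although Gars and Kars each make forms for both places. A synthetase that runs short of its amino acid leaves tRNA uncharged, and uncharged tRNA activates the kinase GCN2 (Eif2ak4), whose signal raises translation of the transcription factor ATF4. ATF4 and its partner CHOP (Ddit3) are known to induce many cytosolic synthetase genes as well as the asparagine synthetase Asns, so these genes are commonly read as part of the amino acid response. In muscle, a large protein store that can release amino acids, the same enzymes are needed for building contractile protein.

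RNA came from primary cells of the quadriceps of ICR mice, on 24 single-colour arrays with 6 in each of 4 groups. Offspring of control dams were set against offspring of dams that received, from day 12.5 of pregnancy, 50% of the food of matched controls, and litters were equalized to 8 in both. Cells of both kinds were kept in a standard differentiation medium (5.5 mM glucose and 2% serum) or overnight in a limited medium (1% serum, with glucose at 0.5 mM, glutamine at 1 mM and carnitine at 0.5 mM). The groups are called control standard, control limited, undernourished standard and undernourished limited. The labels do not give the age or sex of the offspring, the glutamine of the standard medium, or whether the cells in limited medium had been differentiated first. Each culture has a number that 1 standard and 1 limited array carry. Nothing says that separate numbers are separate animals, and the p-values therefore reflect only how far these samples lie apart, which may be technical.

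The 14 markers of differentiated myotubes averaged between 11.16 and 11.90 on each array (log2 signal), while 9 fibroblast markers averaged 5.66 to 7.77 and 6 glial markers 5.81 to 8.13. The 6 endothelial and 6 leukocyte markers averaged 4.85 to 5.25 and 4.99 to 5.33. Control cultures 16 and 24 and undernourished culture 20 had the highest Col1a1 and Cdh19, which are among those fibroblast and glial markers. Col1a1 averaged 10.67, 9.00 and 11.52 and Cdh19 6.21, 5.99 and 9.90 in them, against at most 8.08 and 3.76 in the others. The means of both marker lists were highest in control culture 16 and undernourished culture 20 within their groups, not in culture 24. The myotube mean was highest in control culture 10 and undernourished culture 9 in standard medium. In limited medium it was highest in control culture 24 (11.90) and undernourished culture 20 (11.80). A whole culture was measured, so fewer cells of a type and less RNA per cell cannot be told apart.

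Limited medium raised Qars and Wars, the cytosolic enzymes for glutamine and tryptophan, and lowered Rars2, the mitochondrial enzyme for arginine. Those 3 were the only members past the threshold (limma, adjusted p under 0.05 over all 22180 genes) when the medium was compared over both maternal diets. Of the 18 cytosolic members 2 rose and none fell, and of the 16 mitochondrial members 1 fell and none rose. For comparison, 3.56% of all genes rose and 3.28% fell in this contrast. The median difference was 0.15 over the cytosolic members and 0.00 over the mitochondrial members on the log2 scale, where the median over all genes was 0.01. Of the cytosolic members 15 lay above 0 and 3 below, and 7 mitochondrial members lay above 0 and 9 below; 51.8% of all genes lay above 0. The cytosolic median was 0.10 without undernourished culture 9. Of the 14 myotube markers, 11 also lay above 0 (median 0.10) and 2 rose, Tnni2 by 0.49 and Ckm by 0.47 (adjusted p = 0.00963 and 0.017), and their part in the members' values was not tested.

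**Figure D1:**
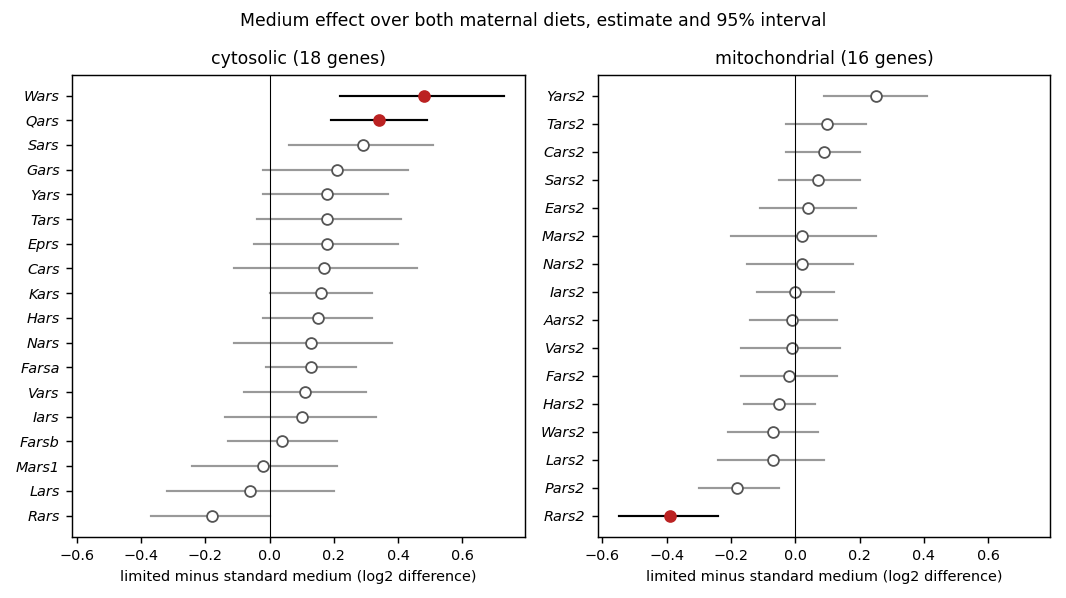
Log2 difference (limited minus standard medium, over both maternal diets) of each cytosolic and mitochondrial synthetase on the horizontal axis, with its 95% interval as a line; filled points are members past the threshold. Wars (0.48) and Qars (0.34) are the called rises and Rars2 (-0.39) the called fall, while most mitochondrial members lie near 0.

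Qars (chr9:108508005-108515941, GRCm38.p6) charges tRNA with glutamine and sits in the multisynthetase complex. Its log2 signal ran from 9.13 to 9.76 with a median of 9.32 in control standard arrays and from 9.45 to 9.87 with a median of 9.76 in control limited arrays. In undernourished cultures it ran from 9.20 to 9.59 (median 9.39) in standard medium and from 9.56 to 9.89 (median 9.72) in limited medium. The groups overlapped in both maternal diets. The standard arrays of control cultures 16 (9.76) and 10 (9.49) lay among the limited ones. In undernourished cultures the overlap was only at 9.56 to 9.59. Qars rose by 0.34 ± 0.07 (SE), a 1.27-fold rise (adjusted p = 0.00505), and was higher in limited medium in 11 of 12 cultures (each culture comparing the arrays that carry its number), the exception being control culture 16 at -0.21. The estimate was 0.34 in control and 0.34 in undernourished cultures, neither past the threshold alone (adjusted p = 0.14 and 0.0925).

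Wars (chr12:108860030-108894175) charges tRNA with tryptophan and is also known as an interferon-inducible gene. In control arrays it ran from 9.11 to 10.27 (median 9.73) in standard medium and from 9.68 to 10.23 (median 10.02) in limited medium, so all limited arrays fell inside the span of the standard ones. In undernourished arrays it ran from 9.55 to 10.01 (median 9.69) and from 9.81 to 10.88 (median 10.56), with cultures 20 and 8 (9.81 and 9.95) lowest in limited medium. Wars rose by 0.48 ± 0.12 (SE), a 1.39-fold rise (adjusted p = 0.0186), and was higher in limited medium in 9 of 12 cultures. The call ended without control culture 5 (0.41, adjusted p = 0.0538) or undernourished culture 4 (0.44, adjusted p = 0.0588). Within undernourished cultures the difference was 0.67 ± 0.17 (adjusted p = 0.0507) and within control cultures 0.28 ± 0.17 (adjusted p = 0.514).

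Rars2 (chr4:34614957-34660167) charges the mitochondrial arginine tRNA and is a known gene of pontocerebellar hypoplasia. It ran from 7.77 to 8.28 (median 7.86) in control standard arrays and from 7.25 to 7.86 (median 7.62) in control limited arrays. In undernourished cultures the standard arrays ran from 7.75 to 8.12 (median 7.98) and the limited arrays from 7.27 to 7.66 (median 7.51). There the media did not overlap, which held in the lower direction for 0.618% of all genes and among the members for Rars2 alone. Rars2 fell by 0.39 ± 0.08 (SE) on the log2 scale (adjusted p = 0.00231) with lower values after limited medium in 6 of 6 undernourished and 4 of 6 control cultures. It was the member with the smallest p in this contrast. In undernourished cultures alone it fell by 0.45 ± 0.11 (adjusted p = 0.03), where 0.735% of all genes fell. That call ended without undernourished culture 9, 4, 1 or 12 (adjusted p = 0.0879, 0.0652, 0.141 and 0.0864), with differences from -0.51 to -0.39. In control cultures the difference was -0.33 ± 0.11 (adjusted p = 0.158).

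**Figure D2:**
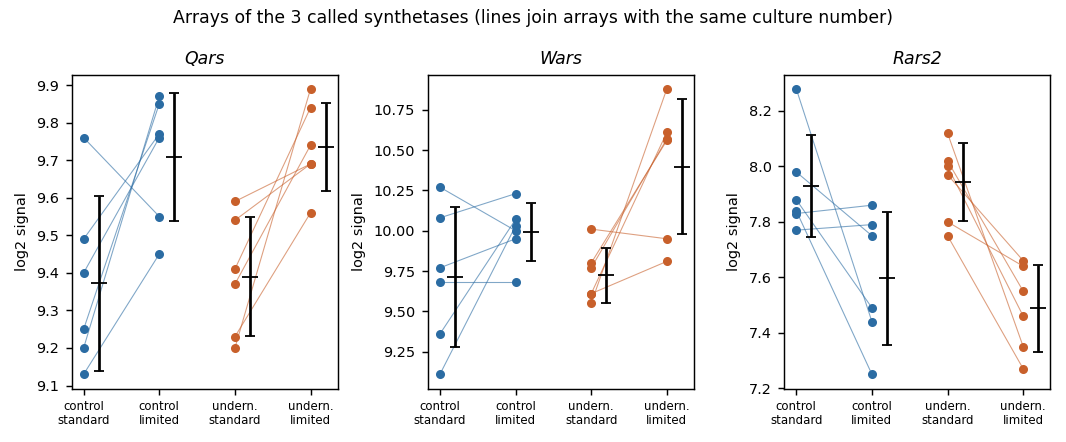
Log2 signal of Qars, Wars and Rars2 on each array by group; thin lines join the standard and limited array that carry the same culture number, and black bars give the mean and SD of 6 arrays. Qars is higher in limited medium in 11 of 12 cultures and Wars in 9, and the Rars2 arrays of the undernourished cultures do not overlap between media.

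A further 4 members had an unadjusted p under 0.05 without passing the adjustment. They were the cytosolic serine enzyme Sars (0.29 ± 0.11, adjusted p = 0.12), the lysine enzyme Kars (0.16 ± 0.08, adjusted p = 0.245), and the mitochondrial enzymes for tyrosine, Yars2 (0.25 ± 0.08, adjusted p = 0.0543), and for proline, Pars2 (-0.18 ± 0.06, adjusted p = 0.0813). With the called members, 4 of 18 cytosolic members were higher at that level, against 10.8% of all genes, and 1 of 16 mitochondrial members was higher and 2 lower, against 9.48% of all genes lower. Yars2 was higher in limited medium in 6 of 6 control and 5 of 6 undernourished cultures. Pars2 was the only member whose mean level lay below 6.02, the median of all genes.

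The multisynthetase complex is an assembly of cytosolic synthetases around scaffold proteins. Of its 7 measured enzymes Qars rose, as did 3.56% of all genes. The others lay between -0.18 for Rars, the cytosolic arginine enzyme, and 0.18 for Eprs, which joins the glutamate and proline enzymes in 1 protein. Iars (isoleucine) differed by 0.10, Lars (leucine) by -0.06 and Mars1 (methionine) by -0.02, with 95% intervals of -0.14 to 0.33, -0.32 to 0.20 and -0.24 to 0.21. The median of the 7 was 0.10 and 4 lay above 0, as did 51.8% of all genes. The measured scaffolds Aimp1 and Eef1e1 differed by 0.09 ± 0.08 and 0.06 ± 0.09 (adjusted p = 0.623 and 0.755).

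All 11 cytosolic enzymes outside the complex lay above 0, with a median of 0.17, and Wars alone passed. Over all genes 51.8% lay above 0 and 3.56% rose. Many of the 11 vary together, and enzymes inside and outside the complex were not tested against each other. Beside Wars and Sars these were Gars (glycine, 0.21 ± 0.11), Tars (threonine, 0.18 ± 0.11), Yars (tyrosine, 0.18 ± 0.09), Cars (cysteine, 0.17 ± 0.14), Hars (histidine, 0.15 ± 0.08), Nars (asparagine, 0.13 ± 0.12), Vars (valine, 0.11 ± 0.09) and the alpha and beta subunits of the phenylalanine enzyme, Farsa (0.13 ± 0.07) and Farsb (0.04 ± 0.08). Their adjusted p ran from 0.271 for Farsa to 0.858 for Farsb. The intervals of Gars and Cars, -0.02 to 0.43 and -0.11 to 0.46, still allow a rise as large as that of Qars.

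Synthetases fall into class I and class II by the fold of their catalytic domain. All 3 calls were among the 18 class I members, where class II has 15. Of the 9 cytosolic class I members 2 rose, and of the 9 mitochondrial class I members 1 fell. Over all genes 3.56% rose and 3.28% fell. None of the 8 cytosolic and 7 mitochondrial class II members passed, with median differences of 0.15 and -0.01. Cytosolic class I members had a median of 0.11, so the medians of the cytosolic classes lay close together.

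The remaining mitochondrial enzymes lay between -0.07 and 0.10. Tars2 (0.10), Cars2 (0.09), Sars2 (0.07), Ears2 (0.04), Mars2 (0.02) and Nars2 (0.02) were slightly above 0, and Iars2 was at 0.00. Aars2 (-0.01) and Vars2 (-0.01) were above 0 after the deposited values were quantile normalized again, while Fars2 (-0.02), Hars2 (-0.05), Lars2 (-0.07) and Wars2 (-0.07) stayed below. In all, 14 amino acids had both a cytosolic and a mitochondrial member, which gave 15 pairs because phenylalanine has 2 cytosolic subunits. The cytosolic member had the higher difference in 13 of the 15 pairs over both diets, in 8 of 15 in control cultures and in 15 of 15 in undernourished cultures. The widest gap was in tryptophan, with 0.48 for Wars and -0.07 for Wars2. For arginine both enzymes lay below 0, Rars at -0.18 and Rars2 at -0.39. For tyrosine the mitochondrial enzyme was the higher of both, Yars2 at 0.25 and Yars at 0.18.

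Within control cultures none of the 34 members passed, where limma called 0.343% of all genes in either direction. Qars and Yars2 were higher and Rars2 and Pars2 lower at an unadjusted p under 0.05, as were 7.28% and 5.78% of all genes. The cytosolic median was 0.07 and 12 of 18 members lay above 0, against 51.7% of all genes. No member's arrays were separate between media in control cultures, as were those of 0.573% of all genes upward and 0.613% downward. Within undernourished cultures the cytosolic median was 0.24, 17 of 18 members lay above 0, against 51.1% of all genes, and Rars alone lay below (-0.12). None of these cytosolic members passed (lowest adjusted p = 0.0507, in Wars), where 0.726% of all genes rose and 1.46% passed in either direction. At an unadjusted p under 0.05, 4 cytosolic members (Wars, Qars, Sars and Eprs) and Yars2 were higher and Rars2 lower, as were 6.71% and 6.69% of all genes. The next largest estimates were in Sars (0.41), Qars (0.34) and Eprs (0.33). The mitochondrial medians were 0.02 and 0.00. The control median was -0.02 without culture 5 or 24 and 0.17 without culture 16. The undernourished median was 0.14 without culture 9 and at most 0.29 when each culture was left out in turn.

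Single cultures differed widely and in opposite directions. The responses set arrays against each other by their shared number alone, and the arrays numbered 9, which have the largest response, correlated at -0.05 (deviations from group means over all genes), those numbered 12 at 0.02 and the others at 0.19 to 0.56. In undernourished culture 9 the median cytosolic response (limited minus standard) was 0.76, with 17 of 18 members higher in limited medium. Control cultures 24 and 5 followed with medians of 0.54 and 0.46, with 18 and 17 of 18 members higher. Undernourished cultures 4 and 12 had medians of 0.35 and 0.27, with 18 and 14 members higher. At the other end, 0 of 18 members were higher in control culture 16 (median -0.38) and 5 of 18 in control culture 11 (median -0.26). The remaining 5 cultures, control 15 and 10 and undernourished 8, 20 and 1, had medians between -0.05 and 0.11.

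**Figure D3:**
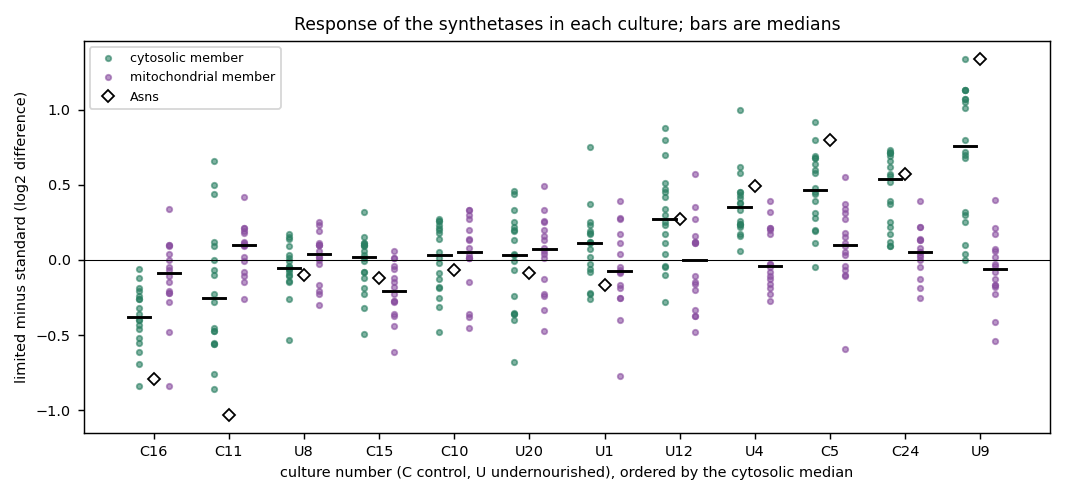
Log2 difference (limited minus standard) of every cytosolic and mitochondrial member in each culture, ordered by the cytosolic median (black bars), with Asns as a diamond. Cytosolic medians run from -0.38 in control culture 16 to 0.76 in undernourished culture 9, while mitochondrial medians stay between -0.21 and 0.10.

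The mitochondrial members did not share this range. Their culture medians ran from -0.21 (control culture 15) to 0.10 (control cultures 5 and 11), and in undernourished culture 9 their median was -0.06 with 6 of 16 members higher. Qars and Hars, and the mitochondrial Yars2 and Tars2, were higher in limited medium in at least 10 of 12 cultures, as were 9.82% of all genes. Rars2 and Pars2 were lower in at least 10, as were 8.8% of all genes.

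**Figure D4:**
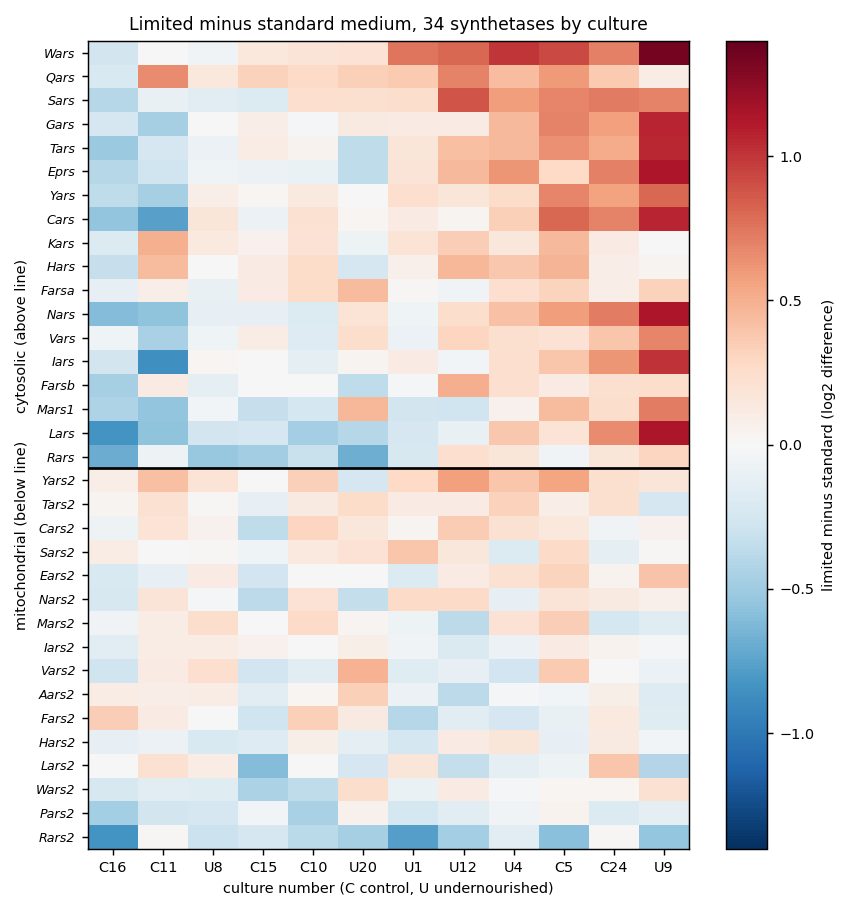
Log2 difference (limited minus standard) of the 34 synthetases (rows, cytosolic above the line, each block ordered by the average difference) in the 12 cultures (columns, ordered by the cytosolic median). Most cytosolic rows turn from blue in control cultures 16 and 11 to red in undernourished culture 9, whereas Qars, Kars, Hars and most mitochondrial rows do not follow that order.

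The span of the responses came from both media. Each member was centred on its mean over all arrays and the 18 cytosolic members were averaged per array, which gave values from -0.44 (culture 5) to 0.31 (culture 16) in control standard arrays, with a median of -0.05. In control limited arrays they ran from -0.25 (culture 11) to 0.09 (culture 24), with a median of -0.01. Undernourished standard arrays ran from -0.31 (culture 9) to 0.15 (culture 1), with a median of -0.03. Undernourished limited arrays ran from -0.16 (culture 20) to 0.40 (culture 9), with a median of 0.26, and all groups overlapped. Cultures 5 and 9, with high responses, therefore had the lowest standard arrays of their groups, and culture 16, with the lowest response, had the highest. The mitochondrial members averaged between -0.16 and 0.10 on every array.

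Culture 16 and undernourished culture 20, with little or negative response, were also among the 3 cultures highest in Col1a1 and Cdh19. Control culture 24, the third of them, had a high response. Culture 11, with the second lowest response, had Col1a1 at 7.34 and Cdh19 at 3.74. The part of these other cell types in the responses was not tested. Without cultures 16, 20 and 24 limma called 5 members for the medium over both diets, Qars, Wars, Yars2 and Hars higher and Rars2 lower, where 3.86% of all genes were higher and 3.38% lower.

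Many, though not all, cytosolic members varied together from array to array. Over the 24 arrays, the deviations from the group means had a median Pearson correlation of 0.58 over the 153 pairs of cytosolic members, 0.16 over the 120 mitochondrial pairs and 0.12 over the 288 mixed pairs. The median was 0.00 between cytosolic members and every other gene. These correlations are descriptive: arrays with the same number may share their cells, and all members of an array share its processing. Because many members vary together, counts of members above 0 in any comparison are not counts of independent results. Cytosolic members also spread more within groups, with a median SD of 0.281 against 0.168 for mitochondrial members and 0.191 for all genes.

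By a cut at 0.5 set on these same arrays, 13 core cytosolic members had median correlations of 0.55 to 0.80 with the other cytosolic members. They were Cars, Eprs, Gars, Iars, Lars, Mars1, Nars, Rars, Sars, Tars, Vars, Wars and Yars. Over the same arrays they correlated with Asns at 0.54 to 0.96, highest for Nars and Yars, and with Atf4 at 0.57 to 0.94, highest for Tars. The other 5, Farsa, Farsb, Hars, Kars and Qars, had medians of 0.12 to 0.42 and correlated with Asns at 0.09 to 0.47. With Atf4 they correlated at 0.19 to 0.59, so the ranges overlapped: Farsb (0.59) lay above Mars1 of the core (0.57). Qars was at 0.14 with Asns and Wars at 0.84. Of these 5, Hars, Kars, Qars and Farsb, correlated with one another and with mitochondrial Yars2 at 0.50 to 0.81, a set chosen after its values were seen. Among mitochondrial members Ears2, the glutamate enzyme, was closest to Asns (0.67), and Rars2 was at 0.00.

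**Figure D5:**
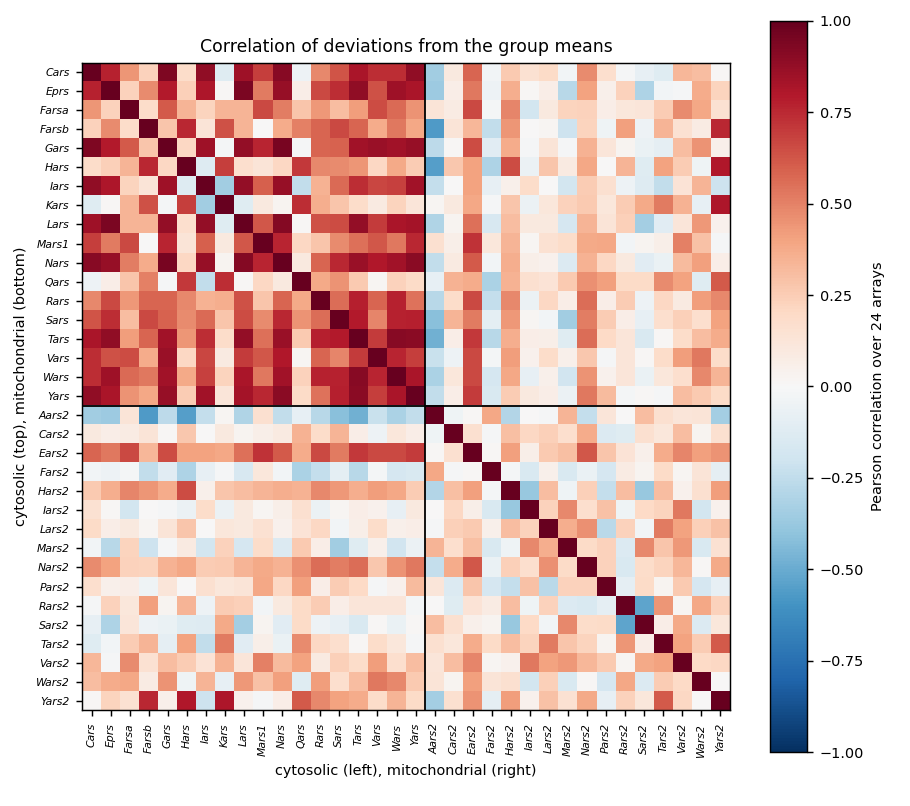
Pearson correlation over 24 arrays between members, from deviations of each array from its group mean (red positive, blue negative); lines separate cytosolic from mitochondrial genes. The 13 core cytosolic genes form the red block, Hars, Kars and Qars stand out of it, and the mitochondrial corner is pale apart from single pairs.

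The known partners of the cytosolic synthetases in the amino acid response were measured on the same arrays. Of 26 measured genes of this list, 10 rose and 1 fell over both diets, where 3.56% of all genes rose and 3.28% fell. Their median was 0.52, against 0.01 over all genes. In control cultures alone 0 of the 26 passed (median 0.25, with 0.343% of all genes called). In undernourished cultures alone 8 rose and 0 fell (median 0.70), where 0.726% of all genes rose. The transcription factor genes Ddit3 (1.31 ± 0.23) and Atf4 (0.60 ± 0.12), the glutathione-degrading Chac1 (1.08 ± 0.20), the pseudokinase Trib3 (1.21 ± 0.23) and the amino acid transporter gene Slc38a2 (0.57 ± 0.09) were among the risen ones (adjusted p = 0.0012, 0.00342, 0.00151, 0.00261 and 0.000643). The kinase gene Eif2ak4, encoding GCN2, fell by 0.41 ± 0.09 (adjusted p = 0.00841). Atf4, Eif2ak4 and Asns were picked out after their values were seen. Ddit3 was higher in limited medium in 12 of 12 cultures and Trib3 in 10 of 12, while Asns was higher in 5 and lower in 7. The 5 cultures in which Asns was higher were the 5 with the highest cytosolic medians, undernourished 9, 4 and 12 and control 24 and 5. Its responses there were 1.34, 0.49, 0.27, 0.57 and 0.80, and in control cultures 16 and 11 they were -0.79 and -1.03. In those last cultures Ddit3 differed by 0.29 and 0.18, Trib3 by -0.17 and -0.55, and the median of the response list was -0.32 and -0.43. Members and response genes were read from the same arrays, so the shared order is a description.

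The element bound by ATF4 together with a C/EBP partner has the core TGATGNAA. RefSeq promoter sequences (GRCm38.p6, from 250 bases before to 50 after the start) were on hand for 25 members. The called gene Wars was not among them. The core occurred on either strand in 4 of the 11 cytosolic promoters, those of Gars, Tars, Iars and Yars, and in 0 of the 14 mitochondrial ones, and 4.51% of the 27025 genes in the table held it. All 4 matches lay within 30 bases of the start used for the promoter. For Yars that start is not the first base of the gene. The stretch shown for it, from chr4:129189853, lies downstream of that first base at chr4:129189734. All 4 genes belonged to the set that correlated together, which was drawn from these same arrays and holds 13 of the 18 cytosolic members. Of the cytosolic promoters on hand, those of Qars, Kars and Farsb belong to members outside that set. The overlap was not tested. The stretches from 50 bases before to 20 after the start are shown for these genes, with the core in capitals, and for the called genes Qars and Rars2, which had no match. They come from chr6:55037951-55038020 (plus strand), chr15:11399639-11399708 (minus), chr13:49682080-49682149 (plus), chr4:129189853-129189922 (plus), chr9:108507955-108508024 (plus) and chr4:34614907-34614976 (plus), in the order given.
Gars: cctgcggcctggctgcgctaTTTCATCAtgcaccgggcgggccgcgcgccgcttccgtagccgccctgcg
Tars: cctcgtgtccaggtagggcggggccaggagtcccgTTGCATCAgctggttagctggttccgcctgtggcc
Iars: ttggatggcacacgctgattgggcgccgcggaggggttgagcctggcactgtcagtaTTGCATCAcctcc
Yars: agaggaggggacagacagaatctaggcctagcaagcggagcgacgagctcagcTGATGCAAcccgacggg
Qars: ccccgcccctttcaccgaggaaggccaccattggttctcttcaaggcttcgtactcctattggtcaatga
Rars2: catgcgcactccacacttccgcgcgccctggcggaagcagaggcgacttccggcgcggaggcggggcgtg

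The match began 30 bases before the start in Gars and 15 before it in Tars, and at base 8 after it in Iars and base 4 in Yars. Their medium differences over both diets were 0.21, 0.18, 0.10 and 0.18, none past the threshold. The core of the NRF1 motif, known from many housekeeping promoters, occurred in 5 members (Farsb, Kars, Tars, Mars2 and Iars2) and in 5.19% of all genes of the table. A match says only that these letters are in the window.

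Maternal undernutrition changed no member past the threshold, in either medium or over both. In standard medium limma called 0 of all genes (0%; at an unadjusted p under 0.05, 394 or 1.78% were higher and 303 or 1.37% lower), and 0 of the 34 members had an unadjusted p under 0.05. The cytosolic median was 0.05 with 16 of 18 above 0, against 53.2% of all genes, and the median was -0.01 without control culture 5 or 24 and 0.13 without control culture 16. In standard medium no member's groups were separate, as were those of 0.0631% of genes upward and 0.0902% downward. In limited medium the call count was also 0 of all genes (617 or 2.78% higher and 589 or 2.66% lower at an unadjusted p under 0.05). The cytosolic members lay higher in undernourished cultures, with a median of 0.29 and 16 of 18 above 0, against 50.9% of all genes. Many of these members vary together (median correlation 0.58), so the count is not one of 18 separate results. The median ran from 0.20 to 0.35 when each culture was left out. In the same comparison 8 of 9 fibroblast markers lay below 0 (median -0.23), and their part was not tested. Among the cytosolic members the exceptions were Kars (-0.03) and Farsa (0.00, above 0 after quantile normalization). Of the cytosolic members 3 had an unadjusted p under 0.05, Wars (0.40, interval 0.04 to 0.76), Nars (0.37, 0.03 to 0.72) and Eprs (0.36, 0.05 to 0.68), each with adjusted p = 0.894. The mitochondrial median was 0.03.

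Wars2, the mitochondrial tryptophan enzyme, had the smallest p of all members for maternal diet and was picked out after its values were seen. In limited medium it ran from 6.46 to 6.83 (median 6.73) in control and from 6.91 to 7.17 (median 7.00) in undernourished arrays, so the groups did not overlap, which held in the upward direction for 0.113% of all genes. In standard medium the groups overlapped, from 6.55 to 7.27 and from 6.84 to 7.19. The difference in limited medium was 0.34 (95% interval 0.14 to 0.54, unadjusted p = 0.00185, adjusted p = 0.894), so it did not pass over all genes. When both arrays of a culture were averaged and 6 cultures compared with 6, it was 0.22 ± 0.08 (adjusted p = 0.999), and limma called 0 genes in all (404 or 1.82% higher and 387 or 1.74% lower at an unadjusted p under 0.05, Wars2, Eprs, Tars and Nars among the higher ones). The cytosolic median in that comparison was 0.17 and the mitochondrial 0.00.

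The medium effect itself was not shown to differ between maternal diets for any member. The cytosolic members had a median difference of effects of 0.21, with 16 of 18 above 0 against 47.4% of all genes, and the mitochondrial members -0.01. The largest was Wars at 0.39, with adjusted p = 1 and an interval from -0.12 to 0.90. Limma called 0 genes (329 or 1.48% higher and 314 or 1.42% lower at an unadjusted p under 0.05), and 0 members had an unadjusted p under 0.05. Leaving out each culture in turn moved the cytosolic median between 0.07 (without undernourished culture 9) and 0.31 (without control culture 5). The 9 fibroblast markers had a median of -0.35 for this difference, with 0 of 9 above 0, and their part was not tested.

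Lists for other steps of tRNA supply held single calls over both diets, where 3.56% of all genes rose and 3.28% fell. Of 18 genes of tRNA processing and export, Tsen54, a subunit of the tRNA splicing endonuclease, rose by 0.39 ± 0.06 (adjusted p = 0.000388), and Pop1, a protein of RNase P, fell by 0.33 ± 0.09 (adjusted p = 0.0251). Of 7 cytosolic elongation factors Eef2, the translocase, rose by 0.15 ± 0.04 (adjusted p = 0.0469), and of 4 mitochondrial ones Tufm, which delivers charged tRNA to the mitochondrial ribosome, rose by 0.25 ± 0.08 (adjusted p = 0.0406). None of 10 synthetase-like, editing and tRNA-conversion genes passed (median -0.01).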

How the data were processed

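RNA of 24 samples (12 culture numbers) was hybridised to single-colour Affymetrix arrays. The deposited log2 signals were made by the authors with RMA in Affymetrix Expression Console, per the labels. Versions and genome build were not given in the sources used here, and base 2 of the logarithm was read from the values. Of 41345 clusters, 23521 had 1 gene symbol, 1814 several and 16010 none here. The cluster with the highest mean stood for each of 22180 genes. Array medians were 5.60 to 5.81, and precision is limited by how many arrays there are. A linear model of 4 groups was fitted with limma 3.58.1 (R 4.3.3; lmFit, eBayes, Benjamini-Hochberg, threshold 0.05); maternal diet over both media was fitted on 12 culture means. In simulated data, limma recovered 43.5%, 86.5% and 98.0% of genes changed by 0.3, 0.5 and 1 (log2) for the medium over both diets, and 7.5%, 57.0% and 94.0% in control cultures. The changed genes were drawn at random from all genes, with independent noise. Cytosolic members spread more within groups than all genes (median SD 0.281 against 0.191), so these shares need not hold for them.

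Members, lists and tests were chosen with earlier results of these data known. All members could be named; values by array were given for those past the threshold, and other lists were named by smallest p, at most 4 each. Alternatives were another normalization, a filter on dim genes, other variance settings, a culture block, cluster means, another threshold and leaving out cultures.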

Additional observations from a re-analysis of the deposited data

Results flagged for a closer look

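Of 136 groups of 6 arrays examined (each member in each group), 4 had 1 array far from the others by Dixon's criterion, which chance alone meets in about 1 in 20 groups. Undernourished culture 20 was the low array in 3 of them. Farsa, the alpha subunit of the phenylalanine enzyme, was at 7.51 there in standard medium (next 7.83, highest 8.00). Yars, the cytosolic tyrosine enzyme, was at 9.18 in limited medium (next 9.60, highest 9.83). Its mitochondrial counterpart Yars2 was at 7.93 in limited medium (next 8.19, highest 8.30). Culture 20 also had the highest Col1a1 (11.52) and Cdh19 (9.90), and their part in these values was not tested. Nars2, the mitochondrial asparagine enzyme, was at 7.61 in control culture 15 in limited medium (next 7.84, highest 7.96).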

How the results depend on the processing

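Over both diets 3 members were called, and 6 with array weights, 5 without cultures 16, 20 and 24, 5 at an adjusted p under 0.1 and 2 to 4 when each culture was left out. In control cultures array weights called 1 member in place of 0. In undernourished cultures, where 1 was called, the filter on dim genes and the fit without cultures 16, 20 and 24 each called 2, array weights 3, an adjusted p under 0.1 called 3, and leaving out each culture 0 to 2. The calls over all genes moved from 1517 to 2099 with array weights, 1607 without cultures 16, 20 and 24, between 991 and 1603 without single cultures (991 without control culture 5, 996 without undernourished culture 4) and to 2325 at the looser threshold; in control cultures from 76 to 149 with the filter, 275 with array weights and 253 at the looser threshold; in undernourished cultures from 324 to 471 (of 11090) with the filter, 448 without cultures 16, 20 and 24, 571 with array weights and 622 at the looser threshold. Without single cultures the counts in control and undernourished cultures ran from 10 to 162 and from 51 to 469. For maternal diet in limited medium array weights called 1 gene, and leaving out single cultures 0 to 2. The cause was not tested.

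The culture number as a replicate block called 4 members over both diets (Yars2 added) and 2 in undernourished cultures (Wars added), and 0 in the other comparisons it was run on; the called genes numbered 2597, 551 and 1007 over both diets, in control and in undernourished cultures. The numbers were not taken as pairing: the correlation of arrays with the same number ran from -0.05 to 0.56, and undernourished cultures 9 and 12 did not correlate best with their own number. The block was not run for maternal diet over both media.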

Other observations

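The cluster shared by Aars, the cytosolic alanine enzyme, and Exosc6, a subunit of the RNA exosome, cannot be assigned to either gene. Its mean signal was 9.02 ± 0.25 (SD, n = 6) in control standard, 9.19 ± 0.23 in control limited, 9.03 ± 0.13 in undernourished standard and 9.34 ± 0.14 in undernourished limited arrays. It was higher in limited medium in 10 of 12 cultures, by 0.25 on average (SD 0.32).

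Nars2 had a second, dimmer cluster. Its difference between media averaged 0.10 (SD 0.32), and over 24 arrays it correlated at -0.06 with the cluster used, so the Nars2 values rest on the brighter cluster.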
